A study of Mus musculus with 4 samples.

Results

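The small intestine of untreated mice without a working cystic fibrosis transmembrane conductance regulator (Cftr) was compared, gene by gene, with that of untreated wild-type (WT) littermates. The comparison took every probe set of the mouse expression array that is annotated to 1 gene symbol and that reached the median signal of its array in WT control, in CF control or in both. That rule kept 20750 of the 45101 probe sets, which stand for 11806 of the 18194 genes with such a probe set. For each gene, the log2 ratio of CF control over WT control was taken for each kept probe set and averaged.

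Mice were of the C57BL/6 background by the labels, C57BL/6J by the study's methods, and carried either wild-type Cftr or the Cftr tm1Unc null allele on both chromosomes, a targeted allele that puts a stop codon into the gene. CF mice (genotype Cftr-/-) and their WT littermates came from congenic heterozygous breeders, and all mice, controls and treated alike, lived from weaning on the liquid diet Peptamen, which keeps CF mice from lethal intestinal obstruction. RNA was made from the whole small intestine with its mesentery trimmed off, and equal amounts of RNA from the mice of a group were pooled and put on 1 array. The CF control pool held 10 mice. The WT control pool held 10 mice by the series' design text and 8 by the study's methods. A further pair of pools, of 7 WT and 8 CF mice, had been given lubiprostone at 10 µg/kg/day for 2 weeks (WT + lubiprostone and CF + lubiprostone). Lubiprostone is a bicyclic fatty acid reported to open the chloride channel ClC-2 and, in some studies, to act on prostaglandin receptors. The study calls its mechanism controversial.

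Cftr is the anion channel of the apical membrane of crypt and villus cells. It passes chloride and bicarbonate into the lumen, which draws water and lets secreted mucus unfold, and without it the lumen is dry, mucus stays attached to the wall and bacteria grow in it. In the intestine the absorptive cells of the villi carry digestive enzymes and nutrient carriers on their brush border and also clear drugs and bile acids, while goblet, Paneth, tuft and mast cells serve defence.

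Each value below is the array signal in arbitrary units, which the authors had scaled so that the mean of each array, without the highest and lowest 2% of signals, was the same on every array. With 1 array per group there is no spread between mice, cages or pools, so no difference has a test, an error or a p-value, and ratios describe these pools only. The median signal was 124 on the WT control array and 109 on the CF control array, and the 75th percentiles were 482 and 464. Genes at or above the 75th percentile of either array are called brighter genes here, and there were 5992 of them. Where the lower signal of a gene was below its array's median, the size is given as "at least" the fold that remains with signals below the median set to the median. Where only some probe sets of a gene were that dim, this smaller fold stands in parentheses after the measured one. A pair of signals in parentheses gives WT control first and CF control second. Where a gene had several probe sets, the SD of their log2 ratios had a median of 0.23 over 5300 genes, which is the scatter between measurements of 1 gene on the same arrays and not an error between animals. Scaling the arrays to the same median in place of the same trimmed mean adds 0.18 to every log2 ratio of CF control over WT control.

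The pools differed in more than genotype. The X-inactivation transcript Xist had a signal of 308 in WT control against 679.8 in CF control, and the Y-linked gene Eif2s3y of 1242 and 884; the levels of both follow the sex of the mice in a pool. Genes of pancreatic enzymes, which mark acinar cells of the pancreas, were bright in both untreated pools, for example the elastase Cela2a at 4980.5 and 3747, against 478 and 859.9 in WT + lubiprostone and CF + lubiprostone. The 19 kept genes of that list had a median log2 ratio of 0.09 between the untreated pools, with 11 higher, and of 0.85 between the treated pools, with 15 higher. Prss3, a trypsinogen gene, had the highest ratio of them, at 43.7 in WT control against 702 in CF control (at least 5.67-fold higher), and a probe set shared by Prss1, Prss3 and related genes went from 77.1 to 1819.99, at least 14.7-fold higher. Of liver marker genes 3 of 12 on the array reached the median in either untreated pool, and Alb and Ahsg, which define hepatocytes, did not. Of colon genes 4 of 9 did, without Hoxb13 and Car1. Of these 4, 2 were higher in CF control, both at least 2-fold, and 2 were lower. Retnlb, described below with the type 2 effectors, is also on the colon list and is among the higher ones. The part of sex and of pancreatic or colon tissue in the results below was not tested.

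Of the 11806 genes, 135 (1.14%) had a CF control signal at least 3-fold above that of WT control, and for 215 (1.82%) it was at least 3-fold below. At 2-fold the counts were 335 (2.84%) and 577 (4.89%), and 48.4% of all genes were higher and 51.6% lower at any size, with a median log2 ratio of -0.01. The middle 90% of genes lay between -0.99 and 0.75. Among the 5992 brighter genes 55 (0.918%) passed 3-fold on the higher side and 101 (1.69%) on the lower side. The excess of lower genes depended on the scaling, since with arrays scaled to the same median 173 genes (1.47%) passed 3-fold on the higher side and 166 (1.41%) on the lower. Just inside and just outside 3-fold, as measured and with dim signals left as they are, stood Mgat4c, 3.08-fold higher, and Egln3, 2.98-fold higher, and on the other side Homez, 3.01-fold lower, and Rhebl1, 2.995-fold lower. Several probe sets were kept for 35 of the 135 higher genes and 48 of the 215 lower genes, and all probe sets of a gene pointed the same way for 34 and 48 of them. In whole tissue a lower signal can come from fewer cells of a type or from less RNA per cell, and these arrays cannot tell one from the other.

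**Figure D1:**
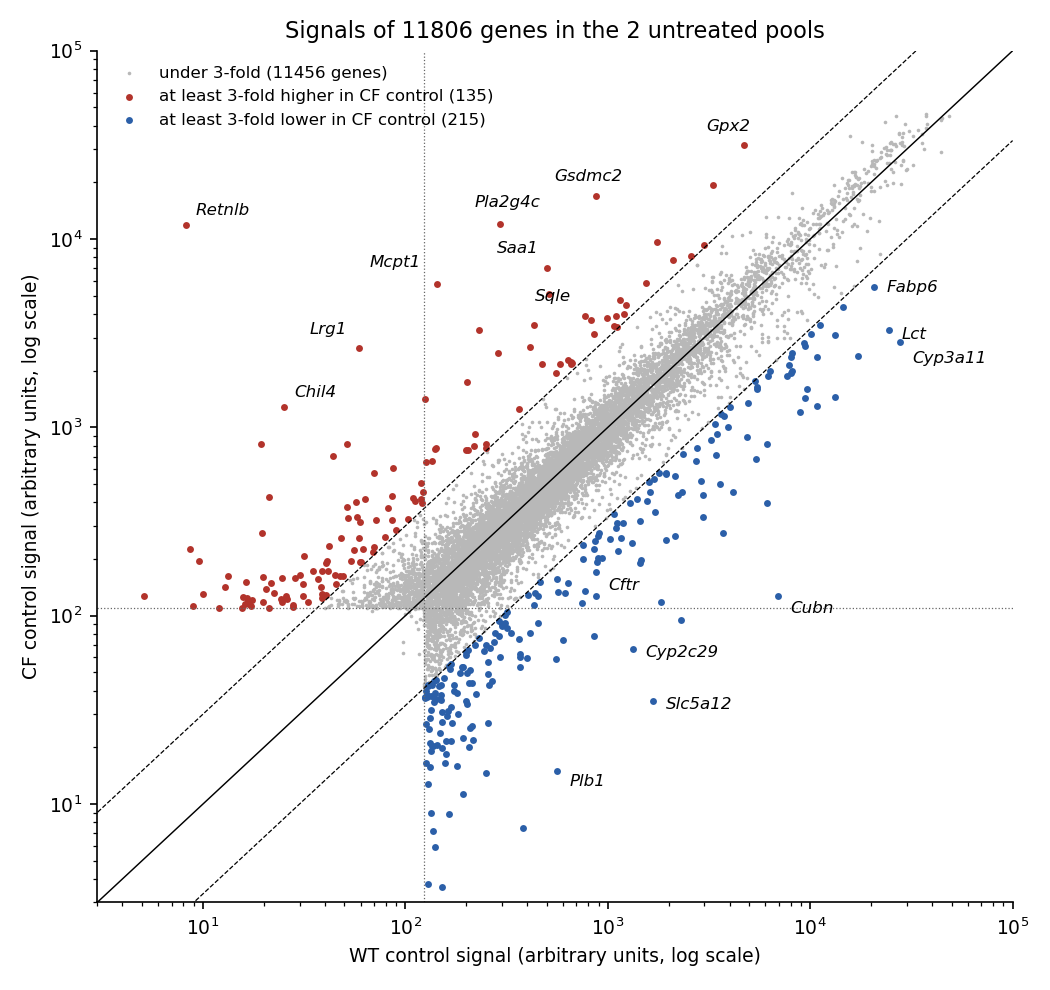
Each point is 1 of 11806 genes, with its signal in WT control on the x axis and in CF control on the y axis (arbitrary units, both axes logarithmic). Red points (135) are the genes 3-fold or more above, and blue points (215) those 3-fold or more below, their WT level, the solid line marks equal signals, dashed lines mark 3-fold, and dotted lines mark each array's median, below which much of the scatter lies.

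Cftr itself was the reference point. Its signal was 870.5 in WT control against 171 in CF control, which is 5.08-fold (3.34) lower, and both of its probe sets were lower, with log2 ratios of -2.68 and -2.01. Between the treated pools it was 595 and 176. The array measures transcript and not protein, and whether its probes cover the changed part of the gene is not given in the sources used here. Genes that work with Cftr in anion secretion did not move as a group: of 18 kept genes 8 were higher and 10 lower, with a median log2 ratio of -0.05 that becomes 0.13 when the arrays are scaled to the same median. Guca2b, which encodes uroguanylin, a peptide that stimulates anion secretion through a receptor on the villus, was 2.66-fold lower with signals of 22126 and 8321, and the receptor gene Gucy2c was 1.43-fold lower. Kcne3, a subunit of the basolateral potassium channel that supports chloride secretion, was 1.79-fold higher, with signals of 1641 and 2941.

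Several of the largest ratios on the higher side belonged to defence genes. Of 21 kept genes of acute phase and epithelial inflammation (out of 27 with a probe set), 20 were higher in CF control, 12 of them at least 2-fold and 9 at least 3-fold (against 2.84% and 1.14% of all genes), and the median log2 ratio was 1.29. Of the 21 genes 10 were brighter genes. Il1a, Il6, Tnf, Orm1, Orm2 and Hp were below the median in both pools and are given no ratio. With dim signals raised to the median of their array the list median is 0.65. S100a9, Cxcl5 and S100a8, over 3-fold higher as measured, are then 1.82-fold, 1.57-fold and 2.60-fold higher. The 3-fold count thus rests in part on dim WT signals. Saa1, a serum amyloid A apolipoprotein induced in epithelium by bacteria, had signals of 503 in WT control against 7057 in CF control. Its ratio was 14.04-fold, but it rests on the WT control pool, since Saa1 stood at 5702 in WT + lubiprostone. Lrg1, a secreted leucine-rich glycoprotein of the acute phase, had 59.1 in WT control against 2629.9 in CF control and was at least 21.2-fold higher, and Saa3 was 5.500-fold higher. Duoxa2, the maturation factor of the epithelial oxidase that makes hydrogen peroxide at the luminal surface, was 4.89-fold higher, with signals of 135 and 662. At the other end of the list Pigr, the receptor that carries immunoglobulin A across the epithelium, was bright in both pools (26276 and 31934) and differed by 1.22-fold.

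Antimicrobial products behaved unequally. Of the 7 Reg genes, secreted lectins of the epithelium, 6 were higher and 1 lower, but Reg2 stood alone in size, with signals of 511 in WT control against 5099.6 in CF control and a ratio of 9.99-fold. Reg3g, which kills Gram-positive bacteria, was 1.68-fold higher, Reg3b 1.24-fold higher, and Reg3a 1.51-fold lower. Reg1 and Reg4 had log2 ratios of 0.15 and 0.19, and the dimmer Reg3d of 0.39. Of 8 kept genes of the Paneth cell list 4 were higher and 4 lower, with a median of 0.04. None of the 8 is a defensin gene, and the defensin Defa3 was below the median on both arrays. Among the 8 the matrix protease Mmp7, which activates defensins, was 1.52-fold higher, the pentraxin Mptx1 2.55-fold higher and the lysozyme Lyz1 1.14-fold lower. Ang4, Itln1, Lyz2, Habp2 and Guca2b, the last named above with anion secretion, had log2 ratios of 0.85, -0.02, -0.40, 0.11 and -1.41. Of 18 genes of bacterial sensing 14 were higher, with a median of 0.41: Pglyrp1, a peptidoglycan-binding protein, was 2.37-fold higher and Cd14, the lipopolysaccharide co-receptor, 1.74-fold.

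Some of the largest ratios belonged to mast cell proteases and type 2 effectors. Mcpt1 and Mcpt2, the chymases of mucosal mast cells, had signals of 143 and 231 in WT control and of 5798 and 3270.4 in CF control, ratios of 40.7-fold and 14.2-fold. Cpa3, a carboxypeptidase of mast cell granules, was at least 4.91-fold higher (86.6 and 608), and Fcer1a, a chain of the high-affinity immunoglobulin E receptor, at least 1.88-fold (41.9 and 233). Of the 14 mast cell genes with a probe set of their own 8 were kept, 7 of them higher, and these 4 were the ones at least 3-fold higher as measured (against 1.14% of all genes), with a list median of 1.36, or 0.58 with dim signals raised to the median of their array. Of the other kept genes Kit had signals of 275 and 241, Gata2 of 199 and 232, Slc18a2 of 223 and 266 and Rab27b of 357 and 391, while Mcpt4, Cma1, Tpsab1, Tpsb2, Ms4a2 and Hdc were below the median in both pools and are given no ratio. A probe set shared by Cma2 and Mcpt9 went from 48.3 to 855, at least 6.91-fold higher. In the treated pools Mcpt1 stood at 74.2 in WT + lubiprostone and 376 in CF + lubiprostone, and the sum over the 8 kept genes was 1556 in WT control and 11040.4 in CF control, against 1319 and 1655 for the WT and CF pools given lubiprostone, so the sum was highest in CF control.

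Retnlb, a goblet cell protein of the resistin family that acts on bacteria and worms, had the highest ratio of all brighter genes, with signals of 8.196 in WT control against 11850.5 in CF control, at least 95.7-fold higher. Chil4, a chitinase-like lectin of type 2 immunity, was at least 10.3-fold higher (25.2 and 1281), and a probe set shared by Chil4 and Chil3 went from 7.65 to 1732. Between the treated pools Chil4 was nearly level, at 26.0 in WT + lubiprostone and 28.2 in CF + lubiprostone. Il33, the epithelial alarmin that starts type 2 responses, had 1814 in WT control against 3981 in CF control and was 2.19-fold higher, and Retnla was 2.74-fold higher. Of 10 kept genes of this list 8 were higher and 4 at least 2-fold (against 2.84% of all genes), among the others Clca1 at 1.998-fold, Ang4 at 1.804-fold, Il4ra at 1.897-fold and the dim Ccl24 at 1.44-fold, whereas Ccl11, the eosinophil chemokine eotaxin, was 1.34-fold lower and Il13ra1 1.13-fold lower. The type 2 cytokine genes themselves, Il4, Il5, Il9, Il13 and Il25, were below the median on both arrays. Tuft cell genes, the source of that last cytokine, had 8 of 11 higher, with a median of 0.47 and none of these by 2-fold; Plcg2 was 1.77-fold higher and Alox5ap, which feeds leukotriene synthesis, 1.88-fold. Of the 3 lower ones Ltc4s, which makes leukotriene C4, was 2.18-fold lower (352 and 162) and the phospholipase C gene Plcb2 at least 1.77-fold lower (193 and 80.02). Only 2 of the 11 tuft cell genes were brighter genes. Pou2f3, Gfi1b and Hpgds, also of the tuft cell list, were below the median on both arrays, like Il25.

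Lipid-cleaving and pore-forming proteins were part of the same range of sizes. Pla2g4c, a cytosolic phospholipase A2 that frees fatty acids from membranes, had 293 in WT control against 12086 in CF control and was 41.3-fold higher. Pla2g5, a secreted phospholipase A2, was at least 4.62-fold higher (69.6 and 572), whereas the phospholipase of the brush border, Plb1, went the other way, from 563 to 14.98, and Hpgd, which inactivates prostaglandins, was 3.899-fold lower (2140.3 and 549). Over all 28 kept genes of phospholipases A2 and eicosanoids 12 were higher and 16 lower, so the list as a whole had a median of -0.16, or 0.02 with arrays scaled to the same median. Gsdmc2, a gasdermin of the pore-forming family expressed in the gut epithelium, had 875 in WT control against 16915 in CF control, 19.3-fold higher. A probe set that also matches Gsdmc4 went from 4987 to 33582, 6.73-fold higher, and one that also matches Gsdmc from 754 to 16305, 21.6-fold higher. Outside this gene cluster Gsdmd and Gsdme had log2 ratios of -0.14 and -0.93, and the dim Gsdma2 of 0.07. Slfn2, a Schlafen family gene of immune cells, was 8.65-fold higher (288 and 2494), Capn13, a calpain protease, 8.65-fold (201 and 1737), and Cfi, complement factor I, 6.49-fold.

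Genes that build the sugar chains of mucins were higher more often than not, and a few of them by a large factor. Of 26 kept genes 20 were higher, 7 at least 2-fold (against 2.84% of all genes) and 5 at least 3-fold (against 1.14%), and 1 was at least 2-fold lower. Fut2, which adds the terminal fucose that gut bacteria feed on, had 19.3 in WT control against 821 in CF control, at least 6.63-fold higher. B3galt5, a galactosyltransferase, was 11.3-fold (9.38) higher (125 and 1412), Chst4, a sulfotransferase of N-acetylglucosamine, 8.02-fold (434 and 3479), and Gcnt3, which makes branched mucin cores, 3.295-fold (668 and 2199.9). St3gal4, the brightest gene of the list, which adds sialic acid, was 1.15-fold lower. The mucins and goblet cell genes of the list themselves differed little. Of these 19 genes 17 were higher and the median log2 ratio was 0.43, but Muc4 alone was higher by 2-fold or more (2.76-fold). Muc5b, a mucin gene outside the list, was dim in WT control (16.5 and 124). With dim signals raised to the median it was 1.004-fold higher. Muc2, the main secreted mucin, had 16545 in WT control against 22836 in CF control, Zg16, a lectin of mucus granules, 35488 and 32565, and Muc13, a mucin of the cell surface, 14328 and 21214.

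The genes of cholesterol synthesis were nearly all higher. Of its 17 genes, all of which reached the median, 16 were higher in CF control, 10 at least 2-fold (against 2.84% of all genes) and 5 at least 3-fold, with a median log2 ratio of 1.18. They run the length of the pathway: Hmgcs1, which makes the precursor of mevalonate, was 2.27-fold higher (4614 and 10473), Idi1, the isomerase of the isoprene units, 3.88-fold (986 and 3830.3), Fdps, which joins these units, 3.61-fold (1233 and 4446), Fdft1, squalene synthase, 3.68-fold (854 and 3146), Sqle, which oxidises squalene, 5.09-fold (768 and 3911), and Cyp51, which demethylates lanosterol, 3.76-fold (2.39) (200.3 and 754). Sc5d, near the end of the pathway, was the exception at a log2 ratio of -0.15. Of 15 genes of sterol uptake, export and control 10 were lower, 3 of these at least 2-fold (against 4.89% of all genes). The other 5 were higher, with log2 ratios up to 0.86. The list median was -0.33, or -0.15 with arrays scaled to the same median. Abca1, which loads cholesterol on to high-density lipoprotein, was 4.604-fold (4.28) lower (934 and 203), and the pair that returns sterols to the lumen, Abcg5 and Abcg8, was 2.05-fold and 2.94-fold lower. Mylip, which degrades the LDL receptor, was 1.88-fold lower. Abca1, Abcg5, Abcg8 and Mylip are textbook targets of the sterol-sensing receptor LXR, and the synthesis genes of SREBP-2, which acts with the CCAAT-binding factor NF-Y. Whether any of these factors moved the signals here was not tested. Of fatty acid synthesis genes 16 of 21 were higher with a median of 0.31, led by the desaturase Scd2 at 3.32-fold and malic enzyme Me1 at 2.55-fold.

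The promoters of the cholesterol genes were searched for CCAAT, the letters that NF-Y binds. In the RefSeq table for GRCm38.p6 a promoter of 300 bases, 250 before to 50 after the gene's start, was listed for 14 of the 17 genes, and CCAAT on either strand stood in 14 of those 14 (100%). The same letters stood in 41.1% of the promoters of all 27025 genes and 42.5% of those of the genes compared here. They stood in 16 of 43 listed promoters of the brighter genes at least 3-fold higher (37.2%) and, among lists that were lower, in 7 of 7 of MHC class II (100%), so they are not particular to higher genes. The cholesterol list is made of known targets of these factors, so the share is a property of the list. A match is a run of letters and not a shown binding site. Idi1 (chr13:8885356-8885655, plus strand) and Cyp51 (chr5:4104648-4104947, minus strand) are printed 5′ to 3′ as examples, because both were over 3-fold higher, with CCAAT or its reverse complement ATTGG in capitals.
Idi1: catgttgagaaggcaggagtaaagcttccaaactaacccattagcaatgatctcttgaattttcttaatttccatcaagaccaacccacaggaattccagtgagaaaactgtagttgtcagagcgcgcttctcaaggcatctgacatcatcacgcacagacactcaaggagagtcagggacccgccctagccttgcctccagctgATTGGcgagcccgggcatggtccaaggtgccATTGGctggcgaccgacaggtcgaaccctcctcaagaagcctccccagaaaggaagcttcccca
Cyp51: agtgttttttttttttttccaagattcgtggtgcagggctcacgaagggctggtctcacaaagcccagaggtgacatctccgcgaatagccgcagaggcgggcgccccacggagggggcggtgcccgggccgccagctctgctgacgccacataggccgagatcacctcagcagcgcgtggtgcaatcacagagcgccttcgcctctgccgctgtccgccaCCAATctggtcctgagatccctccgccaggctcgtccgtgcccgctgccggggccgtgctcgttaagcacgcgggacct
Both matches of Idi1 and the match of Cyp51 lay within 45 bases before the start. The sterol regulatory letters TCACNCCAC were also searched, on both strands, and stood in 1 of the 14 promoters (7.14%) against 1.44% of all.

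Sugar breakdown and the genes of the hypoxia response were higher together, and several genes belong to both lists. Of 17 glycolysis genes 15 were higher (5 at least 2-fold against 2.84% of all genes, median log2 ratio 0.59), and of 24 hypoxia response genes 21 were higher (6 at least 2-fold, median 0.54). Hk2, the hexokinase that holds glucose in the cell, had 829 in WT control against 3710.2 in CF control and was 4.48-fold higher. Slc2a1, a widely expressed glucose transporter, was 3.404-fold higher (366 and 1244), Pgk1, phosphoglycerate kinase, 2.18-fold (6043 and 13144), Slc16a3, the lactate exporter, 2.34-fold (285 and 669), and Ero1a, an oxidase for disulfide bonds in the endoplasmic reticulum, 3.33-fold (1207 and 4017). Egln3, a prolyl hydroxylase that marks hypoxia-inducible factor for destruction and is itself induced by it, was 2.98-fold higher. Ndrg1, another gene of the list, went the other way, from 1465 to 560.2.

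The core letters of the hypoxia response element, ACGTG on either strand, stood in 17 of the 22 listed promoters of hypoxia genes (77.3%) and in 13 of 17 of glycolysis genes (76.5%), against 21.8% of all genes' promoters and 29.0% of those of the genes compared. The promoter of Hk2, chr6:82774405-82774704 on the minus strand, is shown for the largest ratio in both lists, with ACGTG or its reverse complement CACGT in capitals.
Hk2: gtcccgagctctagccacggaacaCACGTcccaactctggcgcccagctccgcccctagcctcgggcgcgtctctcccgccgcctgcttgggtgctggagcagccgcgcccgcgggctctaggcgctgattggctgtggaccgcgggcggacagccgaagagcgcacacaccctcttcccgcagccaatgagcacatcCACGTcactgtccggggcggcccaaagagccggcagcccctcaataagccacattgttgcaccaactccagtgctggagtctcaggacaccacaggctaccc
It held 2 matches, the first at base -226 and the second at base -52 from the start. The presence of these letters in many genes of a list built on known targets of the factor is a property of the list and says nothing of what moved the signals here.

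Amino acid and redox genes gave smaller groups. Of 23 genes of the amino acid starvation response 15 were higher and 4 at least 2-fold (against 2.84% of all genes), with a median of 0.41; Asns, asparagine synthetase, was 3.24-fold higher (1072 and 3472) and Mthfd2, a mitochondrial enzyme of the folate cycle, 2.28-fold. Gpx2, the glutathione peroxidase of the gut epithelium, had signals of 4711 in WT control against 31498 in CF control, 6.69-fold higher, and Gsr, glutathione reductase, was 3.15-fold higher (2579.5 and 8121). Other targets of the antioxidant factor NRF2 did not share this: of 18 genes 11 were higher and 7 lower, with a median of 0.24, and catalase (Cat) was 3.21-fold lower (10075 and 3142). Among carriers and enzymes of ion transport Car4, the carbonic anhydrase on the brush border, was 5.49-fold higher (1753 and 9621) and Car2, the cytosolic one, 1.82-fold lower (2654 and 1461). Slc9a3, the sodium and proton exchanger of the villus, was 2.52-fold higher with signals of 3672 and 9237. Its scaffold Pdzk1 was 7.48-fold lower (6128 and 819), and the kinase Sgk1, which activates sodium absorption, 4.09-fold lower (8162 and 1994).

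**Figure D2:**
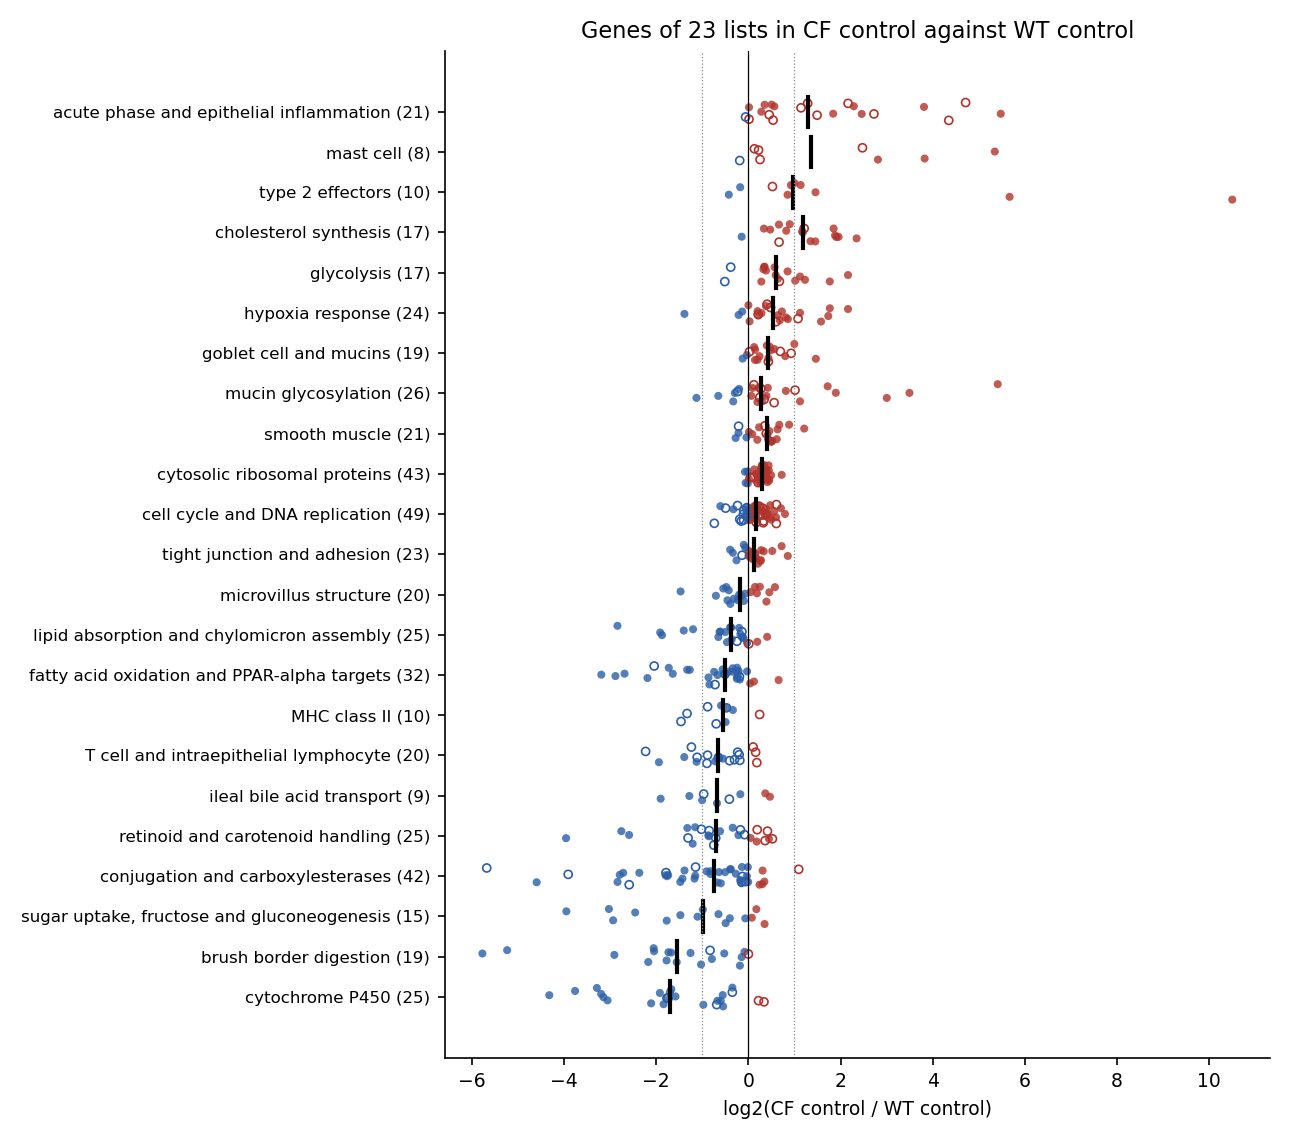
Log2 ratio of CF control over WT control (x axis) for the kept genes of 23 lists (rows, with the number of genes), 1 point per gene. Filled points are brighter genes, open points dimmer ones, red is higher and blue lower, black bars are list medians and dotted lines mark 2-fold. The medians run from 1.36 for mast cell genes to -1.70 for cytochrome P450 genes.

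Most enzymes of the brush border were lower in CF control. Of 19 kept genes of brush border digestion 18 were lower, 12 at least 2-fold (against 4.89% of all genes) and 9 at least 3-fold (against 1.82%), and the median log2 ratio was -1.55. The 9 include the phospholipase gene Plb1, named above, and Cubn, a vitamin B12 receptor and not an enzyme. Plb1 is also counted with the phospholipases and Cubn with vitamin uptake. Lct, lactase, had 24559 in WT control against 3276 in CF control, 7.498-fold lower. Xpnpep2, an aminopeptidase for peptides with proline, was 4.503-fold lower (1439 and 319), Mme, neprilysin, 4.15-fold (8029.5 and 1934), Treh, trehalase, 4.13-fold (7697 and 1865), and Mep1a, the alpha subunit of the protease meprin, 3.42-fold (5434 and 1589.8). Some bright enzyme genes were nearly level: the maltase-glucoamylase gene Mgam had 28851 and 26094, the alkaline phosphatase gene Alpi 28219 and 24861, and Mep1b, the beta subunit of meprin, 19939 and 18816. Genes that build the microvilli did not share the large ratios, with 7 higher and 13 lower of 20, and a median of -0.18 that is 0.00 with arrays scaled to the same median. Ezr, which links membrane and actin, was 2.77-fold lower (4001 and 1444), and the lectin Lgals4 and keratin Krt18 had log2 ratios of 0.14 and 0.58.

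Uptake of vitamins and bile acids belongs to the same villus cells. Cubn, the receptor that takes up vitamin B12 with intrinsic factor in the ileum, showed the largest ratio among the brighter genes that were lower, with 6905 in WT control against 127 in CF control, 54.5-fold (52.9). Amn, the protein that anchors it, was 3.15-fold lower (4025 and 1276), Slc23a1, a vitamin C carrier, 5.71-fold (771 and 135), and Slc46a1, the folate carrier, 2.31-fold (4498 and 1944). In all, 11 of 17 genes of vitamin and calcium uptake were lower with a median of -0.30; S100g, the calcium-binding protein calbindin of the duodenum, had 12608 and 10261. In the ileal list Fabp6, the bile acid-binding protein of the cytosol, was 3.74-fold lower (20674 and 5532), the apical bile acid carrier Slc10a2 2.43-fold lower (807 and 332), and Slc51a, a subunit of the basolateral exporter, 2.003-fold lower (6878 and 3434), with 7 of 9 lower in all. Nr1h4, the bile acid receptor FXR, was 1.29-fold higher.

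Sugar carriers split by type. Slc5a4a and Slc5a4b, members of the sodium and glucose cotransporter family, had 1822 in WT control against 118 in CF control and 2152 in WT control against 264 in CF control, 15.4-fold and 8.14-fold lower. Slc5a1, the main sodium and glucose cotransporter of the gut, had 23933 in WT control against 25233 in CF control. Of 15 genes of sugar uptake, fructose metabolism and gluconeogenesis 12 were lower and 7 at least 2-fold (against 4.89% of all genes), with a median of -0.99. The gluconeogenic enzymes were Pck1, which was 7.64-fold lower (1936 and 253), Fbp1, 5.48-fold lower (4883 and 891), and G6pc, 3.41-fold lower (1938 and 568). Amino acid carriers differed in both directions. Slc6a20a, which carries proline, was 7.33-fold lower (8887 and 1212), Slc16a10, an exporter of aromatic amino acids, 4.499-fold (3.26) lower (1168 and 259.6) and Slc6a19, the carrier of neutral amino acids, 2.49-fold lower (7398 and 2975), while 9 of 23 were higher and the median was -0.41. The higher ones at least 2-fold apart were both dim in WT control: Slc6a14, a carrier of neutral and basic amino acids, was at least 3.25-fold higher (57.2 and 403) and Slc7a5, a carrier of large neutral ones, at least 3.398-fold (109 and 421). Slc5a12, a sodium and lactate cotransporter, had 1676 in WT control against 35.3 in CF control, at least 15.3-fold lower, Slc13a2, which carries citrate, was 3.78-fold lower and Slc34a2, the phosphate carrier, 3.08-fold lower (3604 and 1171).

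Cytochrome P450 genes had the lowest median of the lists with 8 or more genes. Of 25 kept genes (43 on the array) 23 were lower, 15 at least 2-fold (against 4.89% of all genes) and 14 at least 3-fold (against 1.82%), with a median log2 ratio of -1.70. Cyp3a11, the main drug-oxidising P450 of the mouse gut, had 27739.5 in WT control against 2845 in CF control, 9.75-fold lower. Cyp3a25 was 9.15-fold lower (13315 and 1455), Cyp2b10 13.5-fold (3704 and 274), Cyp2c29 at least 12.2-fold (1332 and 66.8), Cyp2c55 8.84-fold (2949.9 and 334), and Cyp4v3, a fatty acid hydroxylase, 8.31-fold (10742 and 1293). The family was not uniform: Cyp3a13, of the same subfamily as Cyp3a11, was 1.51-fold lower (19665 and 12989). A probe set shared by the fatty acid hydroxylases Cyp4a31 and Cyp4a10 went from 2562 to 112, 22.9-fold lower. The receptors that induce these enzymes were lower by less, Nr1i3 (CAR) by 1.74-fold (961 and 551) and Nr1i2 (PXR) by 1.34-fold (936 and 699).

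Conjugating enzymes and carboxylesterases followed, with 37 of 42 lower, 18 at least 2-fold (against 4.89% of all genes), and a median of -0.75. With arrays scaled to the same median 28 of the 42 were lower and the list median was -0.57. Ugt2b5, which joins glucuronic acid to steroids and drugs, had 2289.7 in WT control against 94.9 in CF control, at least 20.9-fold lower, Ugt2a3 was 7.15-fold lower (3584 and 502) and Ugt2b36 6.91-fold (876 and 127). Ces2a, a carboxylesterase that cleaves ester drugs and fats, was 6.56-fold lower (9431 and 1437). The brightest gene of this list, the glutathione transferase Gsto1, had 18507 and 23566. Among exporters Abcb1a, the drug efflux pump P-glycoprotein, was 3.87-fold lower (3907 and 1009.7) and Slc47a1, an exporter of organic cations, 7.56-fold lower (1445 and 191), but over 22 ABC and organic ion transporters 11 were higher and 11 lower. Retinoid handling had 18 of 25 lower and 8 at least 2-fold (against 4.89%), with a median of -0.71. Rdh7, a retinol dehydrogenase, had 6131 in WT control against 396 in CF control, 15.5-fold lower, and Aldh1a1 and Aldh1a7 (9591 and 1596, and 2954 and 438), of the family that makes retinoic acid, were 6.01-fold and 6.75-fold lower. Rdh16f2, a retinol dehydrogenase family gene outside the list, was at least 5.06-fold lower (553 and 59.2). Rbp2, the retinol-binding protein of the enterocyte, had 22053 and 18994.

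Promoters of the lower genes were searched in the same way. The letters CAAAGTCCA, known to bind the enterocyte factor HNF4, stood on either strand in 6 of the 82 listed promoters of the 101 brighter genes that were at least 3-fold lower (7.32%), in 1 of 43 of the brighter higher genes (2.33%), and in 0.555% of all promoters and 0.629% of those of the genes compared. The genes were Cyp2c65, Cyp2c68, Cyp3a11, Hsd3b3, Pdzk1 and Treh. CCAAT stood in 51 of the 82 (62.2%). Hnf4a itself was 1.25-fold higher (3960.0 and 4944). Of the 6, Cyp3a11 (chr5:145879805-145880104, minus strand), Pdzk1 (chr3:96829815-96830114, plus strand, 1 of 2 starts listed) and Treh (chr9:44672983-44673282, plus strand) are shown, for a P450, a scaffold and a digestive enzyme, with the match or its reverse complement in capitals.
Cyp3a11: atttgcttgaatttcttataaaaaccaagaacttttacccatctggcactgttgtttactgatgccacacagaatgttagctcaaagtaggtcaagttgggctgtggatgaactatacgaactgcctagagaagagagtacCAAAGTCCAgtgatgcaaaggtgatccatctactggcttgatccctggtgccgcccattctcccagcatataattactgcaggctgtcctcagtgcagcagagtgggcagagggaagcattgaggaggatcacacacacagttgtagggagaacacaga
Pdzk1: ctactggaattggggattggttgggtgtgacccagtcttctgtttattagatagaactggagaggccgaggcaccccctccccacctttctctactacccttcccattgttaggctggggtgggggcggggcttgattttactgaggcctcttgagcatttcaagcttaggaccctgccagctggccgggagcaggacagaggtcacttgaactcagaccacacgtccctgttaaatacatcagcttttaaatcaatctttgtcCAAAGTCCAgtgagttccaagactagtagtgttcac
Treh: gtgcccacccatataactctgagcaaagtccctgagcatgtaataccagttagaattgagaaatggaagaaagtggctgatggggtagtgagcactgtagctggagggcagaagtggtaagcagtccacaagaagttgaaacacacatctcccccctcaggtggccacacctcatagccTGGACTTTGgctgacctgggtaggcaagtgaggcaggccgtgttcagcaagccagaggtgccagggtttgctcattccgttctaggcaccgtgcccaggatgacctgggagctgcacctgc
The matches began at bases -109, 14 and -71 from the start. Of the 12 motifs searched these are the ones described, chosen after their shares were seen, and the shares carry no test.

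Lipid metabolism of the enterocyte was lower in many genes by small amounts. For lipid absorption and chylomicron assembly 22 of 25 genes were lower and 5 at least 2-fold (against 4.89% of all genes), with a median of -0.37. With arrays scaled to the same median 16 of the 25 were lower and the list median was -0.19. Apoc3, an apolipoprotein that slows the clearance of triglyceride, had 17186 in WT control against 2402 in CF control, 7.15-fold lower. Apob, the scaffold of the chylomicron, was 2.64-fold lower (7909.6 and 2994), Slc27a2, a fatty acid transport protein, 3.66-fold lower (4949 and 1351), and Cd36, a fatty acid translocase, 3.76-fold (3.49) lower (849.9 and 226). Fabp1, the brightest gene of the list, had 48772 and 45262. Fatty acid oxidation and PPAR-alpha target genes had 29 of 32 lower and 7 at least 3-fold (against 1.82%), with a median of -0.51. Acaa1b, the thiolase of peroxisomes, was 9.12-fold lower (4161 and 456), Pdk4, the kinase that shuts pyruvate out of oxidation, 7.38-fold lower (1460.5 and 198), the thioesterase gene Acot1 6.44-fold lower (747 and 116), and Ppara, the receptor itself, 3.11-fold lower (1591 and 511). Acadl, which oxidises long-chain fatty acids, was 1.58-fold higher (6533 and 10299.8).

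Among immune and endocrine cells the lower lists were smaller in size. T cell and intraepithelial lymphocyte genes had 17 of 20 lower, with a median of -0.65. The cytotoxic granule genes Gzma and Gzmb had 5874 and 4015, and 1593 and 966, the chemokine Ccl5 was 3.84-fold lower (1569 and 409), and Klrd1, a receptor of killer cells, 2.62-fold lower (543 and 207). Of 10 genes of MHC class II 9 were lower with a median of -0.54. The bright ones, Cd74, H2-Eb1, H2-Aa and H2-Ab1, had log2 ratios of -0.33, -0.49, -0.46 and -0.59, the dimmer H2-DMa, H2-DMb2, Ciita, H2-Oa and H2-Ob of -0.48, -0.70, -0.88, -1.33 and -1.46, and H2-Eb2 of 0.25. B cell and plasma cell genes had 8 higher and 7 lower, and the immunoglobulin gene Igha had 28882 and 36518. Enteroendocrine genes had 17 of 21 lower with a median of -0.43, such as Gip, the incretin of the duodenum, at 4414 and 2359, and Nts, neurotensin of the ileum, at 2981 and 1487. All 8 kept aquaporins were lower, with a median of -0.93, or -0.49 with dim signals raised to the median of their array, but 3 by 2-fold (against 4.89% of all genes) and, of these, only Aqp1, the water channel of endothelium, was among the brighter genes (2768 and 780.0, 3.55-fold); with arrays scaled to the same median 6 of the 8 were lower. Aqp3, Aqp2, Aqp8, Aqp5, Aqp7, Aqp11 and Aqp4 had log2 ratios of -2.55, -2.47, -0.95, -0.91, -0.51, -0.14 and -0.07.

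Some large gene groups differed little between the pools. No gene of the 49 of cell cycle and DNA replication and none of the 23 of tight junctions and adhesion differed by 2-fold, and their medians were 0.17 and 0.11. Ribosomal protein genes (43, median 0.30), oxidative phosphorylation (62, median 0.21) and smooth muscle genes (21, median 0.41) lay a little above their WT level. Actg2, the smooth muscle gamma-actin, was 2.32-fold higher (3643 and 8436), and the collagen genes Col1a1 and Col3a1 were 2.05-fold and 1.84-fold higher. Transcription factors of the intestinal epithelium were centred at 0.03, with 16 of 29 higher, and Cdx2, the factor of intestinal identity, had 972 and 511. Among crypt stem cell genes Olfm4 and Lgr5 had 15232 and 16051, and 567 and 329, and the list had 12 genes higher and 13 lower. Of its 25 genes 1 was at least 2-fold higher (against 2.84% of all genes), Prom1 at 3.10-fold (2990 and 9266), and 3 were at least 2-fold lower (against 4.89%).

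The treated pools offer the same genotypes on arrays and mice that the untreated comparison did not use, though the mice had also received lubiprostone, so that genotype and drug response act together there. Of the 55 brighter genes on the higher side of 3-fold, 54 (98.2%) were higher in CF + lubiprostone than in WT + lubiprostone, against 49.9% of all brighter genes. By 2-fold or more 46 (83.6%) were higher, against 2.05%. Of the 101 brighter genes at least 3-fold lower, 95 (94.1%) were lower in the treated pair, and 71 (70.3%) by 2-fold or more, against 2.5% of all brighter genes. Among the 135 and 215 genes of any brightness the shares with the same direction were 83.0% and 84.7%. Across the 5992 brighter genes the log2 ratios of both pairs had a Pearson correlation of 0.74, over genes that share 4 arrays and are not independent.

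**Figure D3:**
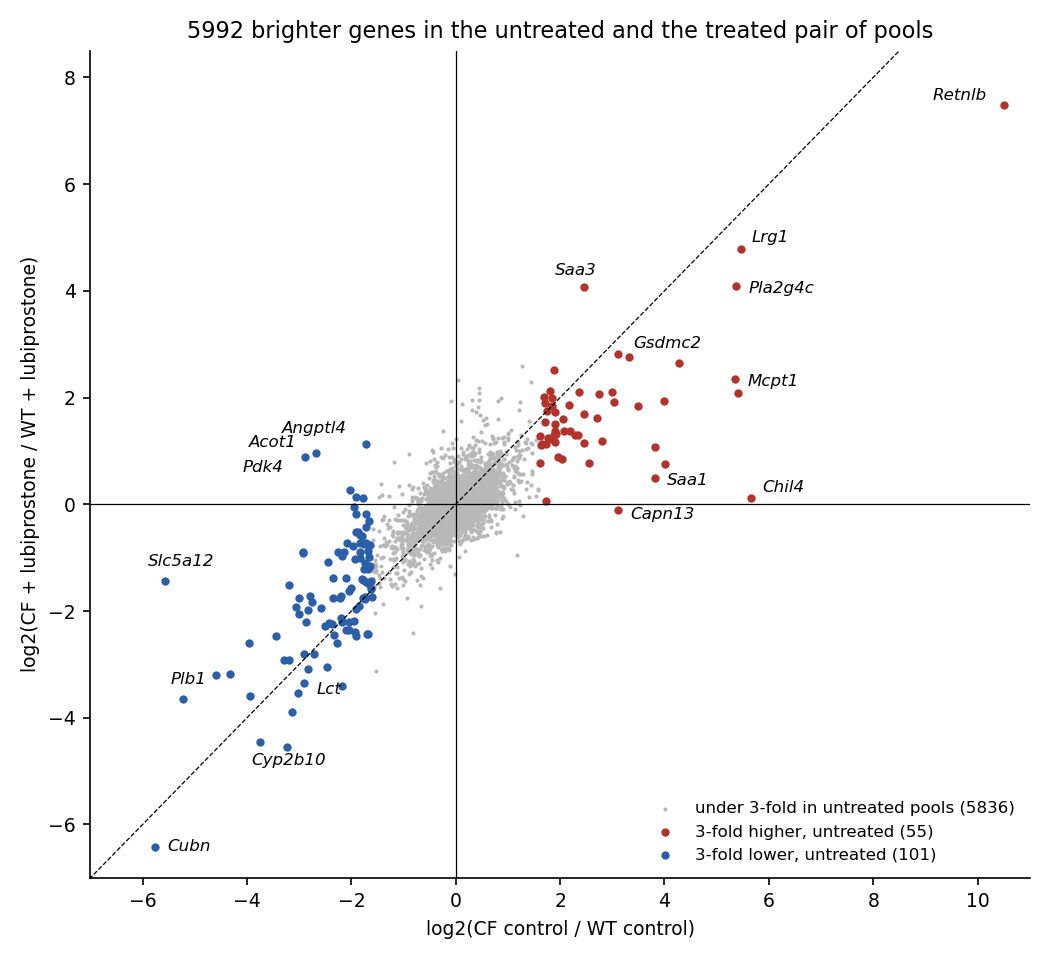
Each point is 1 of 5992 brighter genes, with its log2 ratio of CF control over WT control on the x axis and of CF + lubiprostone over WT + lubiprostone on the y axis. Of the red points (55 genes at least 3-fold higher in untreated pools) 54 lie above 0, and of the blue points (101 genes at least 3-fold lower) 95 lie below 0; the dashed line marks equal ratios.

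The order of all 4 pools is given as a description, since the choice of these genes fixed the order of the untreated pools. Both CF pools were above both WT pools for 53 of the 55 higher genes, and by at least 2-fold for 42, and both were below for 93 of the 101 lower genes, and by at least 2-fold for 68. Over all brighter genes, which were not chosen for their ratio, the shares were 27.2% and 0.968% above and 24.7% and 1.55% below, and nothing is read from the difference. Separation is measured here as the ratio of the nearer CF pool to the nearer WT pool. Retnlb was the most separated gene, with 2938 in the lower CF pool and 16.3 in the higher WT pool, followed by Lrg1 with 2629.9 against 122.6, a ratio of 21.5. Among the lower genes Cubn led, with 4912 in the lower WT pool and 127 in the higher CF pool, a ratio of 38.8. Slc5a4a (11.9), Ugt2b5 (9.21), Cyp2b10 (9.04) and Pdzk1 (7.01) were also apart by more than the 3-fold limit. Lactase kept its order too, at 20420.1 in WT + lubiprostone and 1992 in CF + lubiprostone.

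List medians lay close together in the untreated and the treated pair for some groups and apart for others. The list medians of acute phase and epithelial inflammation were 1.29 and 1.26 in these pairs, of brush border digestion -1.55 and -1.40, of conjugation and carboxylesterases -0.75 and -0.82, of cytochrome P450 genes -1.70 and -1.02, and of cholesterol synthesis 1.18 and 0.75. Those of mast cell genes were 1.36 and -0.09, of aquaporins -0.93 and 0.13, of MHC class II -0.54 and 0.28, of smooth muscle 0.41 and -0.16, and of T cell genes -0.65 and -0.11. The mast cell median hides its members. Of the 8 genes 3 were at least 2-fold higher between the treated pools, Mcpt1 (ratio 5.07), Cpa3 (2.28) and Mcpt2 (2.12). The only one at least 2-fold lower there was the dim Fcer1a (0.212). With dim signals raised to the array's median the untreated medians of the acute phase, mast cell and aquaporin lists are 0.65, 0.58 and -0.49. Interferon-stimulated genes stood the other way round in size, with 25 of 38 higher and a median of 0.27 in the untreated pair, and 35 higher and a median of 0.92 in the treated pair. No list had a test of the difference between the pairs.

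**Figure D4:**
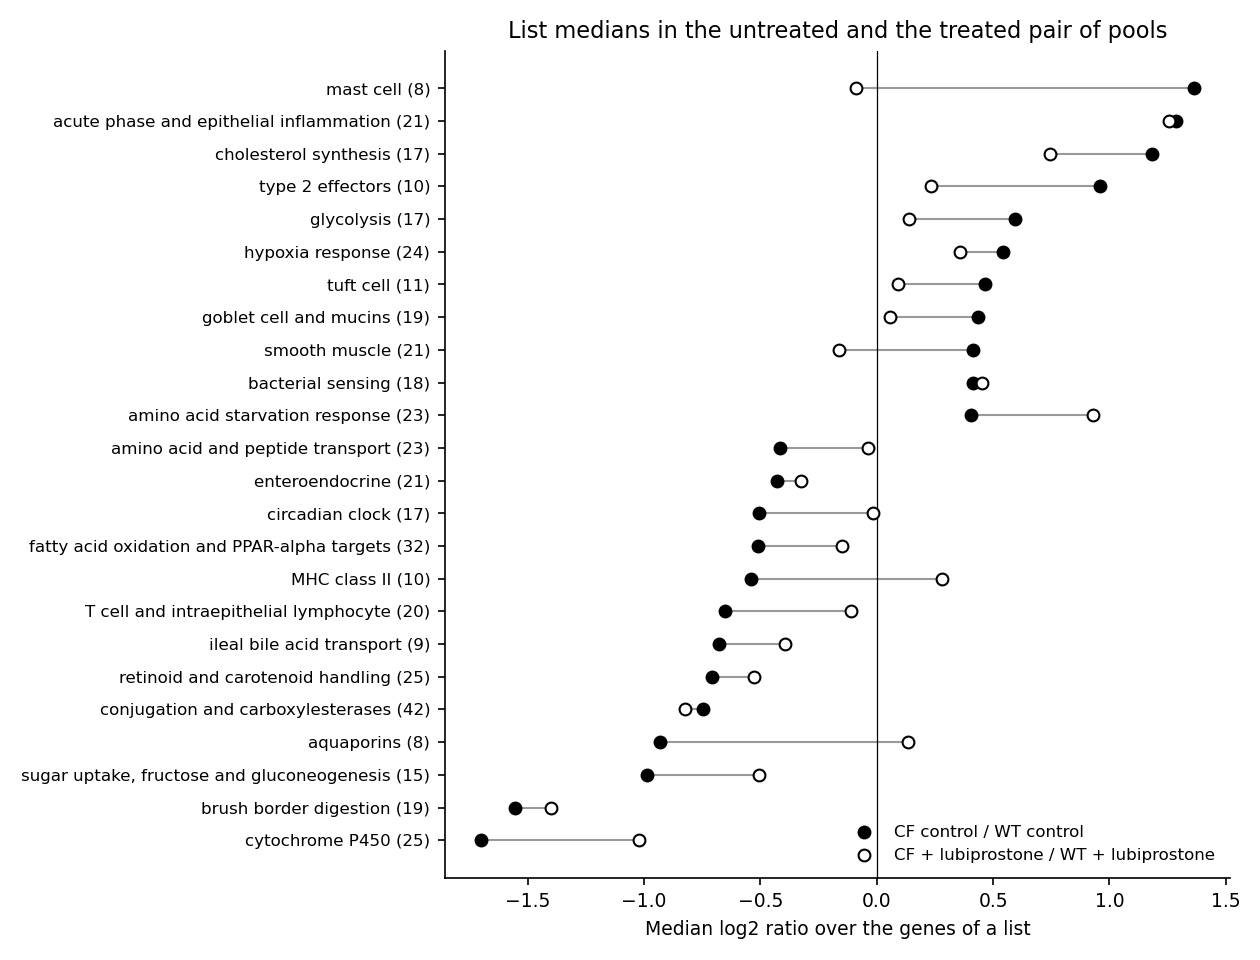
Median log2 ratio over the kept genes of 24 lists (rows, number of genes in brackets), for CF control over WT control (filled) and CF + lubiprostone over WT + lubiprostone (open). The lists hold 8 or more genes and were picked for untreated medians far from 0, the nearest at 0.41. That choice favours treated medians nearer 0, and nothing is read from it. It leaves out lists such as interferon-stimulated genes, at 0.27 and 0.92. The mast cell median went from 1.36 to -0.09, with 3 of the 8 genes at least 2-fold higher in the treated pair and 1 lower. The acute phase median stood at 1.29 and 1.26. All are from signals as measured, dim ones included.

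**Figure D5:**
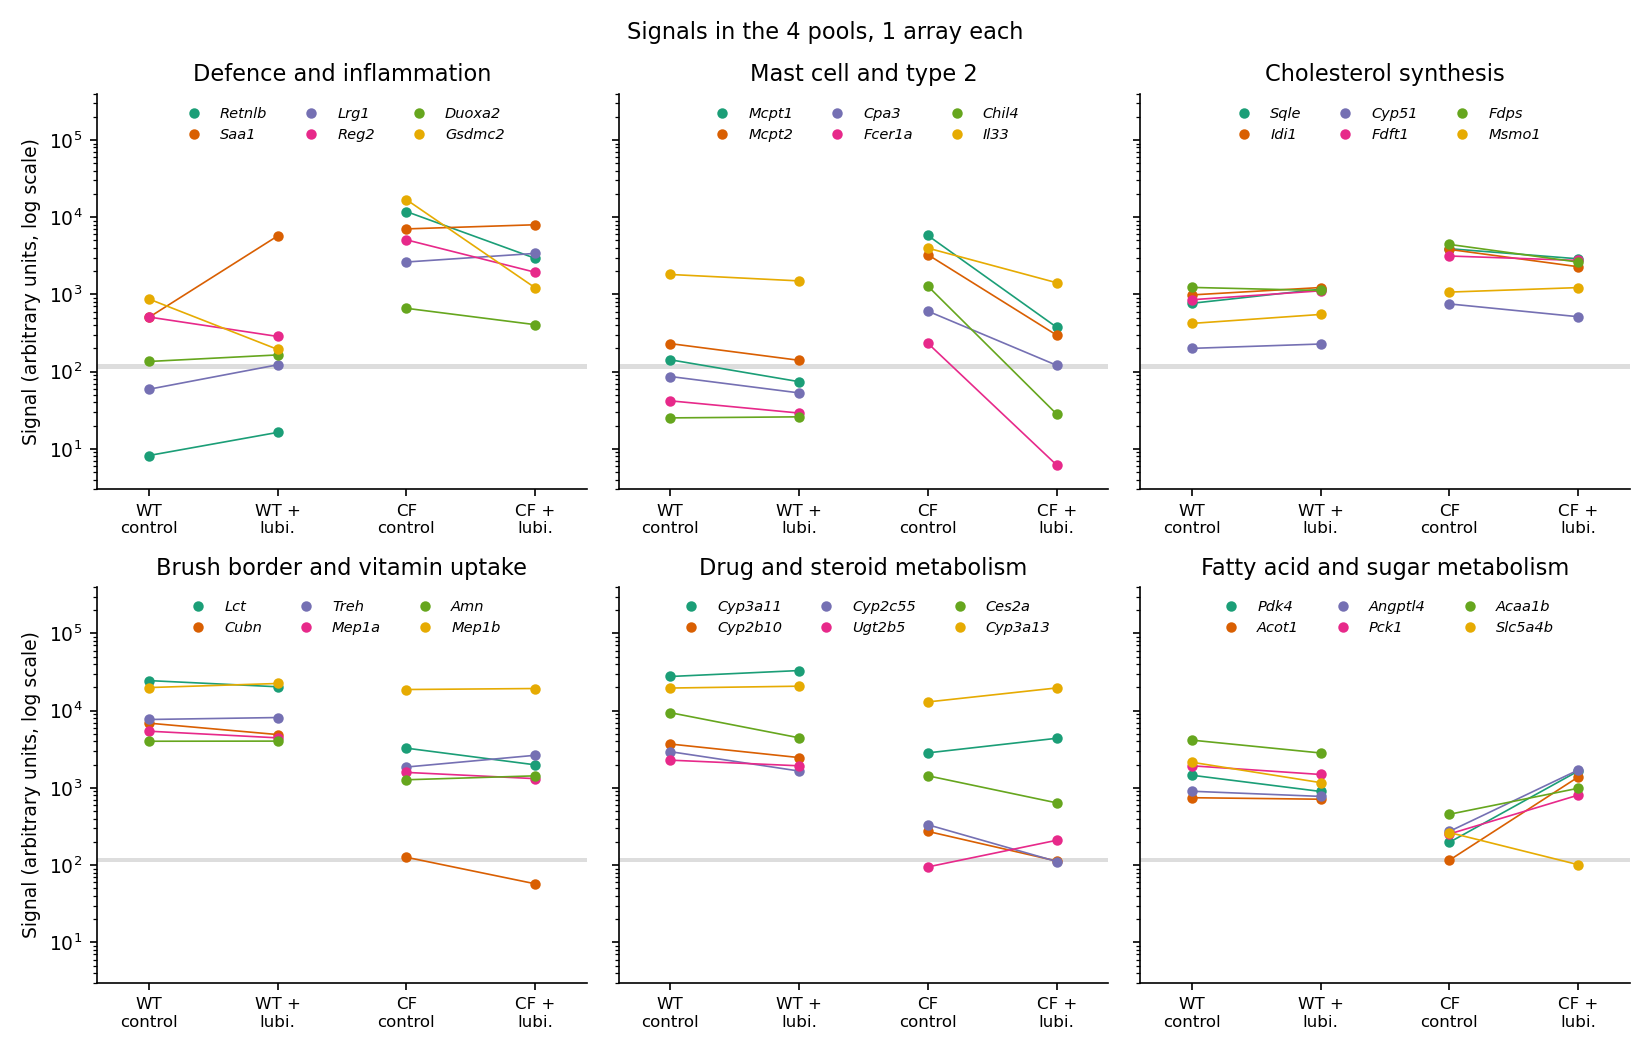
Signals (y axis, arbitrary units, logarithmic) of 36 genes in 6 panels, 1 array per pool on the x axis, with lines joining the untreated and treated pool of a genotype and the array medians shaded in grey. Lct, Cubn and Cyp3a11 are lower in both CF pools than in both WT pools, whereas Mcpt1 and Mcpt2 are highest in CF control and Pdk4, Acot1 and Angptl4 are lowest in CF control.

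Dimmer genes carry most of the counts and the least certainty. Of the 135 genes at least 3-fold higher 80 were dimmer ones (1.38% of all dimmer genes), and of the 215 lower genes 114 (1.96%), and with signals below the median set to the median 60 and 109 of the 135 and 215 still differed by 3-fold. A probe set below the median in 1 pool is kept only through its signal in the other pool, so the filter favours ratios away from 1. Of the 55 and 101 brighter genes 38 and 66 belong to one of the 72 lists, and 17 and 35 to none. Among those outside the lists with the largest ratios was Maob, monoamine oxidase B, with 5403 in WT control against 675 in CF control, 8.001-fold lower.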

How the data were processed

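Total RNA of the small intestine was hybridised to Affymetrix Mouse 430 2.0 arrays, 1 array per pooled group and 4 in all. The deposited values are signal intensity per probe set, which the authors made with GCOS (the MAS5 method) and scaled to the same trimmed mean on each array. They are linear, not normalised further, and carry no depth; the number of arrays limits the precision. Of 45101 probe sets 34958 are annotated to 1 gene symbol, 932 to several and 9211 to none, and only the first kind was used for genes; the others are named as shared probe sets where shown. Symbols were brought up to date through gene IDs. Probe sets at or above the array's median in WT control or CF control were kept, log2 ratios were averaged per gene, and 2-fold and 3-fold were the sizes counted. No test was run, since each group is 1 array. The counting scripts were checked on simulated arrays.

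The members and the 72 gene lists, written from general knowledge, were chosen with earlier results of these data known. Genes were named from a set given by rule: Cftr; the 20 highest and 20 lowest brighter genes with all probe sets in 1 direction; in each list the brightest gene and up to 4 others with the largest ratio; the genes the study reported on; all genes of lists with at most 8. Alpi, Ccl11, Ccl24, Cela2a, Ciita, Cxcl5, Cyp2c65, Cyp2c68, Cyp3a13, Fdps, G6pc, Gcnt3, the H2-DM and H2-O genes, Gkn2, H2-Eb2, Il13ra1, Il4ra, Lcn2, Ltc4s, Mep1a, Mep1b, Mme, Ndrg1, Plcb2, Sc5d, Slc6a14, Slc7a5 and Treh were named after their values were seen. Each count and list median was also computed after median scaling or quantile normalisation, unfiltered, filtered at the 75th percentile or over 4 arrays, with signals below the median set to it, with the median, brightest or summed probe sets, and with a pseudocount of 32. The counts alone were also taken over probe sets in place of genes. Promoters came from the RefSeq table for GRCm38.p6, with 32851 rows. Python 3.11.15, numpy 2.4.6, pandas 2.3.3, scipy 1.17.1 and matplotlib 3.10.9 were used.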

Additional observations from a re-analysis of the deposited data

Results flagged for a closer look

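Brighter genes that differed by at least 3-fold between the untreated pools are listed here if their treated ratio lay on the other side of 1, at any size. For some of them, such as Capn13, G6pc and Cd36, the treated pools were nearly level, so their difference was absent there and not turned over. The rule leaves out genes that were nearly level there but stayed on the same side of 1. Examples are Chil4 (treated ratio 1.09) and Scd2 (1.05), higher in CF control, and Ccl5 (0.961), lower in CF control. The difference between the pairs was not tested, since each group is 1 array, and the treated mice had also received lubiprostone. Pdk4, the kinase that inhibits pyruvate dehydrogenase, was 7.38-fold lower in the untreated CF pool, and its ratio of CF + lubiprostone over WT + lubiprostone was 1.84. Acot1, a thioesterase of fatty acid metabolism, was 6.44-fold lower and then had a ratio of 1.94. Angptl4, an inhibitor of lipoprotein lipase induced by fasting, was 3.31-fold lower and then had a ratio of 2.20. Cd36 (3.76-fold lower, or 3.49-fold with dim signals raised to the median), G6pc (3.41-fold lower) and Sgk1 (4.09-fold lower) had ratios of 1.10, 1.09 and 1.21 between the treated pools. Capn13, the calpain, was 8.65-fold higher in CF control and had a ratio of 0.927 between the treated pools.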

How the results depend on the processing

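Of the 135 higher and 215 lower genes past 3-fold, 294 had the same direction between the treated pools. Scaling to the same median gave 173, 166 and 279, quantile normalisation 160, 191 and 290, and with a pseudocount of 32 the counts were 95, 151 and 215. The counts moved by over 1.5 times under other filters and units: without a filter, when all 18194 genes enter, they were 759, 1213 and 1153, with a filter at the 75th percentile 58, 102 and 154, with signals below the median set to it 60, 109 and 158, and with probe sets in place of genes 207, 346 and 447. The share higher among 3-fold genes was 38.6%, and 51.0% with the same median. Of the 72 list medians 44 were at least 0.23 from 0, and 3 of these reversed under an alternative: enteric neuron, glia and Cajal cell genes at 0.53 with the filter at the 75th percentile, colon genes at -0.42 without a filter, and skeletal muscle genes at -0.12 without a filter and -0.00197 with signals below the median set to it. List medians nearer 0 changed sign more often, 11 of the 72 with arrays scaled to the same median. Of the 298 named genes the 139 at least 2-fold apart kept their direction under all of the settings that give a value per gene, and 23 of the rest changed sign under at least 1, 8 of them with the same median. At most 32 moved by more than 0.23 on the log2 scale under any 1 setting, the pseudocount. No paired analysis was possible because each group is 1 array of a pool, and no array could be left out. Genes dim in one pool have only a lower bound, and no statement here extends to single mice.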

Other observations

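Lists not described above gave these values, each for CF control over WT control and with no test. Of 17 circadian clock genes 13 were lower with a median log2 ratio of -0.51 (-0.02 between the treated pools). The clock output gene Dbp was 2.34-fold lower (1036 and 442; WT control first), while Bhlhe40, a repressor of the clock, was 1.54-fold higher (1822 and 2809.5). The time of day at which tissue was taken is not given in the sources used here. Of 40 collagen, laminin and matrix genes 29 were higher with a median of 0.34 (-0.01 between the treated pools), but Lamb3 and Lama3, laminins of the epithelial basement membrane, were 2.67-fold and 1.99-fold lower (487 and 183, and 777 and 391). Of 20 glucocorticoid-induced genes 14 were lower with a median of -0.23 (-0.05 with arrays scaled to the same median), and 16 were higher with a median of 0.56 between the treated pools. Pdk4 and Sgk1 are on this list, at 7.38-fold and 4.09-fold lower, and so is Tat, tyrosine aminotransferase, which was at least 6.58-fold higher (51.5 and 815). Chemokine genes had 15 of 23 higher, among them Ccl20, which draws cells to lymphoid follicles, at 2.74-fold (209.8 and 574), and Ccl8 at 2.76-fold (178 and 493).

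Enzymes that make citrulline and arginine in the enterocyte were lower in part: Arg2, a mitochondrial arginase, was 2.74-fold lower (14126 and 5159), Otc, ornithine transcarbamylase, 2.203-fold (1.97) lower (1798 and 816), and Oat, ornithine aminotransferase, 1.74-fold lower (21840.3 and 12538), and all 3 were also lower in CF + lubiprostone than in WT + lubiprostone, at ratios of 0.385, 0.412 and 0.4805. Gastric genes, of which 9 of 19 with a probe set reached the median, differed in both directions. Tff2, a trefoil peptide of stomach and duodenal glands, had 11168 in WT control against 3498 in CF control (3.19-fold lower), Gkn3 4455 and 1663, and Cym, chymosin, was at least 7.79-fold lower (852 and 78.3), while Anxa10, an annexin of the stomach, was 5.51-fold higher (141 and 776) and Gkn2 was 2.25-fold higher (555 and 1249). The proton pump genes Atp4a and Atp4b of the acid-secreting stomach were below the median on both arrays. The neutrophil genes S100a8 and S100a9 and the lactoferrin gene Ltf were dim in every pool, but higher in both CF pools (S100a8 at 71.9 and 51.4 in WT and 322 and 362 in CF, control first). These genes were below the median in WT control and were kept through CF control. Of 14 neutrophil and eosinophil genes with a probe set 5 were kept, none of them a brighter gene. Mpo, Elane, Camp, Ngp, Cxcr2, Epx, Prg2, Ccr3 and Il5ra were below the median on both arrays. Lcn2, lipocalin 2, which binds bacterial siderophores, stood at 63.03 and 417 in the untreated WT and CF pools and at 135 and 3514 in the treated ones.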
